A study of Mus musculus with 5 samples.

Results

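Excitation-contraction coupling turns an action potential into a heartbeat, and the 10 genes described here encode its calcium machinery. They were chosen by symbol (Cacna1c, Cacnb2, Cacna2d1, Ryr2, Casq2, Atp2a2, Pln, Slc8a1, Jph2 and Camk2d), and each was found in the table of 49671 genes by its Ensembl identifier and could be tested, as could 14880 genes in all. RNA was measured in whole hearts of C57BL6/J mice at postnatal day 2 (PN2), from 3 CharmeWT pools of 9 littermate hearts each and 2 CharmeKO pools of 3 littermate hearts each. The CharmeKO allele carries a polyadenylation signal inserted into the Charme locus, which encodes a long noncoding RNA of cardiac and skeletal muscle. Among cells of the embryonic heart, the paper found its nuclear form only in cardiomyocytes. CharmeWT animals carry the intact locus, and the labels name no treatment. Genotype and pool size (hearts per pool) cannot be told apart, and each pool counts as 1 sample.

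As background, calcium enters a cardiomyocyte through the L-type calcium channel and opens the ryanodine receptor of the sarcoplasmic reticulum, the internal calcium store. The larger release that follows drives contraction, after which the store takes calcium back through the SERCA pump, which phospholamban restrains, and the sodium-calcium exchanger carries the rest out of the cell. In rodents the newborn heart still lacks a full set of T-tubules, leans more on entry and exchange across the surface membrane, and shifts towards store release as it matures.

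The pools held between 16721055 and 21646378 counts on genes. Charme itself had 39.3, 10.4 and 14.0 CPM in CharmeWT pools 1 to 3 and 4.04 and 3.54 in CharmeKO pools 1 and 2, so every CharmeKO pool lay below every CharmeWT pool. A list of 14 cardiomyocyte genes took between 6.18% and 7.69% of counts in CharmeWT pools and 5.80% and 6.31% in CharmeKO pools. Their summed levels were 19578 to 27196 FPKM in CharmeWT pools and 26969 and 23399 in CharmeKO pools, within that range. Actc1 and Myl2 had the highest levels, so the sum says little of the others. None of the 14 was called, and their median log2 fold change, CharmeKO over CharmeWT, was 0.086. Both CharmeKO pools lay below every CharmeWT pool for 3 of them and above for 1, against 18.2% and 17.8% of all genes. The CharmeKO pools stood apart from each other. Counts of mitochondrial genes were 21.1% of the library in CharmeKO pool 1, and between 9.68% and 11.1% in the other 4. Genes of the salivary gland summed to 2.57% of counts in CharmeKO pool 2, 0.0279% in CharmeKO pool 1 and at most 0.000372% in CharmeWT pools, where 5 of these 10 genes had no count. All 5 adipose markers were called higher as well, with 0.0987% of counts in CharmeKO pool 2, 0.00397% in CharmeKO pool 1 and at most 0.000516% in CharmeWT pools. The 6 smooth muscle and pericyte markers were at a median of -0.54 on the log2 scale, CharmeKO over CharmeWT, with 1 called (higher) and summed levels of 117 to 139 FPKM in CharmeWT pools and 107 and 111 in CharmeKO pools. The part of adipose or smooth muscle RNA in the values below was not tested. Fewer cardiomyocytes and less RNA of a gene per cardiomyocyte cannot be told apart in such bulk RNA.

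Levels are given as FPKM, fragments scaled to the length of annotated exon and to the depth of the library, which puts genes of different length on 1 scale. By this measure the store genes led the list in CharmeWT hearts. Pln had a mean of 1512 ± 200 FPKM (SD, n = 3), Atp2a2 939 ± 42.5, Casq2 410 ± 54.4 and Jph2 117 ± 7.44. The ryanodine receptor Ryr2 had 26.6 ± 3.06 FPKM, and the exchanger, the kinase and the channel subunits followed between 4.17 and 10.6. Neighbours in this order held separate ranges over the 3 CharmeWT pools except Slc8a1 (10.6 ± 2.32) and Cacna1c (9.51 ± 1.04), whose ranges overlapped. The order of the 5 most abundant genes was the same with the length of the longest annotated transcript in place of all exons, whereas Camk2d, with 22493 bases of exon but a longest transcript of 5524 bases, went from 7.24 ± 0.258 to 29.5 ± 1.05 FPKM and passed Cacna1c. In CharmeKO pools the ranges of Atp2a2 and Casq2 overlapped, since Casq2 reached 675 FPKM in CharmeKO pool 1, the same as Atp2a2 there. The 10 genes together took between 1.30% and 1.41% of counts in CharmeWT pools, and 1.10% and 0.995% in CharmeKO pools 1 and 2. After TMM scaling, which the tests use, they summed to 12406 to 13795 CPM in CharmeWT pools, 13018 in CharmeKO pool 1, within that range, and 9658 in CharmeKO pool 2, below it.

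**Figure D1:**
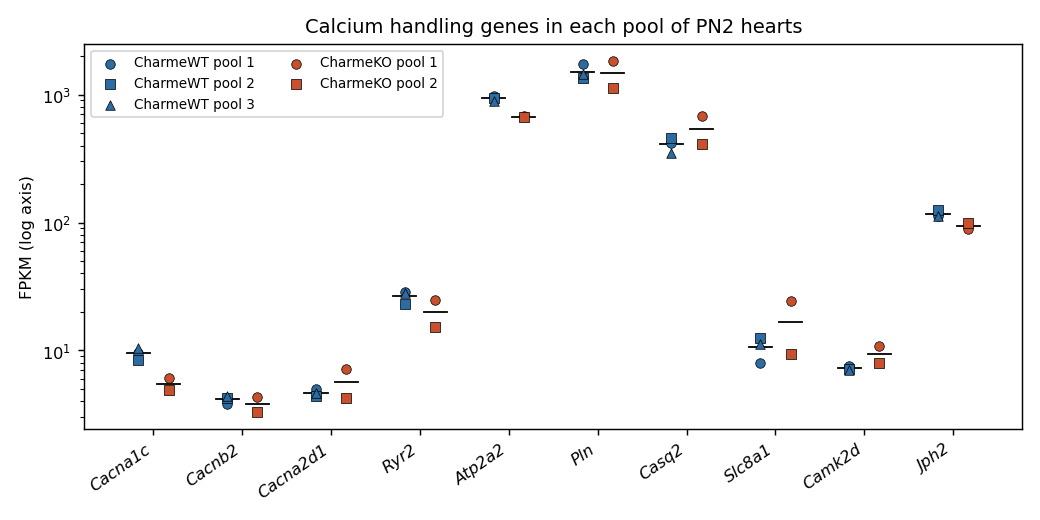
FPKM (log axis) of each of the 10 genes in each pool of PN2 hearts, with CharmeWT pools in blue, CharmeKO pools in red and a bar at the mean of the genotype. The levels run from 3.32 FPKM for Cacnb2 to 1814 FPKM for Pln, and the pools of the genotypes lie apart for Cacna1c, Atp2a2, Camk2d and Jph2 only.

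A gene was called where edgeR's quasi-likelihood test gave an adjusted p under 0.1 and at least 1 genotype had a mean of 1 FPKM or more. By this rule 1 of the 10 genes was lower in CharmeKO hearts and none was higher, while 2.05% of all genes tested were called, 0.524% as lower and 1.53% as higher. A single called gene says little of the 10 as a group. The fitted log2 fold changes, CharmeKO over CharmeWT, ran from -0.79 for Cacna1c to 0.67 for Slc8a1, with 6 below 0 and 4 above. Their median was -0.087, against 0.023 over all genes tested. The median moved with the CharmeKO pool that was left out, to -0.28 without CharmeKO pool 1 and 0.15 without CharmeKO pool 2. With 1 CharmeKO pool left, the spread comes from the CharmeWT pools alone and that pool is assumed to vary like them, so such a fit says how far 1 pool departs from CharmeWT. Without CharmeKO pool 1 it called Cacna1c and Ryr2 and 4.33% of all genes, and without CharmeKO pool 2 it called Cacna1c, Cacna2d1, Casq2, Slc8a1 and Camk2d and 31.7% of all genes. Both CharmeKO pools lay below every CharmeWT pool for 3 of the 10 genes (18.2% of all genes tested did so) and above every one for 1 (17.8% of all genes).

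Entry of calcium was covered by 3 subunits of the L-type channel. Cacna1c encodes Cav1.2, the pore through which calcium enters the ventricular cell, on chromosome 6 (chr6:118587240-119196418, minus strand, GRCm38). Its levels were 9.52, 8.47 and 10.5 FPKM in CharmeWT pools 1 to 3 and 6.12 and 4.89 in CharmeKO pools 1 and 2. Both CharmeKO pools were well under the lowest CharmeWT pool. Cacna1c fell by 0.79 on the log2 scale (SE 0.189, 95% interval -1.21 to -0.37, adjusted p = 0.0958), a level 1.73-fold lower in edgeR's quasi-likelihood test. The call was close to its threshold. The adjusted p was 0.0212 with the likelihood ratio test and 0.00866 with DESeq2, which called 6.27% and 7.54% of all genes. It was 0.122 once trends with transcript length and base composition had been removed from each pool (the length and GC correction, log2 fold change -0.59) and 0.115 and 0.110 with edgeR's legacy and robust settings, so that the call ended. The log2 fold change was -0.96 without CharmeKO pool 1 and -0.64 without CharmeKO pool 2. With CharmeWT pool 1, 2 or 3 left out it was -0.79, -0.87 and -0.71 and the call was lost (adjusted p between 0.160 and 0.461), in fits that called 0.0137%, 1.27% and 0% of all genes.

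Neither of the other channel subunits covered here had both CharmeKO pools below every CharmeWT pool. Cacnb2, the beta subunit that carries the pore to the membrane, had 3.84, 4.28 and 4.40 FPKM in CharmeWT pools and 4.32 and 3.32 in CharmeKO pools. Cacna2d1, the extracellular alpha2-delta subunit, had 4.96, 4.44 and 4.69 FPKM in CharmeWT pools and 7.13 and 4.25 in CharmeKO pools. In both genes CharmeKO pool 1 was the higher of the CharmeKO pools and the genotypes overlapped. The log2 fold changes were -0.13 (95% interval -0.55 to 0.29, adjusted p = 0.735) for Cacnb2 and 0.28 (-0.23 to 0.78, adjusted p = 0.524) for Cacna2d1. These intervals leave room for changes in either direction. Cacna2d1 was at 0.60 without CharmeKO pool 2 and at -0.14 without CharmeKO pool 1. After the length and GC correction the log2 fold changes were -0.41 for Cacnb2 and 0.022 for Cacna2d1, and neither was called.

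Release from the store was covered by Ryr2 and Casq2. Ryr2, the cardiac ryanodine receptor, is the release channel itself. Its levels were 28.7, 23.1 and 28.1 FPKM in CharmeWT pools and 24.6 and 15.2 in CharmeKO pools. CharmeKO pool 2 was the lowest of the 5, and CharmeKO pool 1 lay between the CharmeWT pools. Its log2 fold change was -0.42 (SE 0.241, 95% interval -0.96 to 0.12, adjusted p = 0.370). It was -0.81 without CharmeKO pool 1, -0.12 without CharmeKO pool 2 and -0.25 after the length and GC correction. Casq2, the cardiac calsequestrin that buffers calcium inside the store, had 416, 461 and 352 FPKM in CharmeWT pools and 675 and 409 in CharmeKO pools. Here CharmeKO pool 1 was the highest of the 5 and CharmeKO pool 2 fell within the CharmeWT range. The log2 fold change of 0.40 (SE 0.257, 95% interval -0.17 to 0.98, adjusted p = 0.415) was 0.71 without CharmeKO pool 2 and -0.0028 without CharmeKO pool 1. With the length and GC correction it was 0.19.

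Uptake was covered by Atp2a2 and Pln. Atp2a2 encodes SERCA2, the pump that refills the store, and its level rises as the heart matures. It had 976, 947 and 893 FPKM in CharmeWT pools and 675 and 664 in CharmeKO pools. The CharmeKO pools agreed closely and lay below every CharmeWT pool. The log2 fold change was -0.49 (SE 0.269, 95% interval -1.09 to 0.11) with an adjusted p of 0.353, a level 1.40-fold lower that did not pass the test, and it stayed between -0.52 and -0.46 with any 1 pool left out. DESeq2 gave an adjusted p of 0.0881 and called the gene. With the length and GC correction the log2 fold change was -0.48. Pln, phospholamban, holds SERCA2 back until it is phosphorylated. It had 1734, 1347 and 1456 FPKM in CharmeWT pools and 1814 and 1119 in CharmeKO pools, the highest and the lowest of the 5. The log2 fold change of -0.045 (95% interval -0.71 to 0.62, adjusted p = 0.947) averaged pools that went in opposite directions. After the length and GC correction it was -0.60, and both CharmeKO pools then went the same way, with -0.66 without CharmeKO pool 1 and -0.51 without CharmeKO pool 2.

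Extrusion was covered by Slc8a1, the sodium-calcium exchanger NCX1, which is abundant in the newborn heart. It had 8.01, 12.5 and 11.2 FPKM in CharmeWT pools, 24.3 in CharmeKO pool 1 and 9.34 in CharmeKO pool 2. CharmeKO pool 1 was far above the other 4, and CharmeKO pool 2 lay within the CharmeWT range. This gave a log2 fold change of 0.67 (SE 0.345, 95% interval -0.10 to 1.44, adjusted p = 0.324), and of 0.35 after the length and GC correction. The direction rested on CharmeKO pool 1, since it was -0.18 without that pool and 1.20 without the other.

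Jph2 encodes junctophilin-2, which ties the store to the surface membrane so that channel and receptor face each other. It had 112, 125 and 113 FPKM in CharmeWT pools and 88.3 and 99.4 in CharmeKO pools. Both CharmeKO pools were below the lowest CharmeWT pool. The log2 fold change of -0.31 (SE 0.180, 95% interval -0.72 to 0.087, adjusted p = 0.370) did not pass the test. It was 0.032 after the length and GC correction. Camk2d encodes the delta form of calcium/calmodulin-dependent kinase II, which phosphorylates the ryanodine receptor and phospholamban. It had 7.53, 7.14 and 7.04 FPKM in CharmeWT pools and 10.9 and 8.02 in CharmeKO pools. Both CharmeKO pools were above the highest CharmeWT pool, CharmeKO pool 2 by little. Camk2d had a log2 fold change of 0.38 (SE 0.184, 95% interval -0.026 to 0.79, adjusted p = 0.295), and 0.58 without CharmeKO pool 2. With the length and GC correction it was 0.31.

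**Figure D2:**
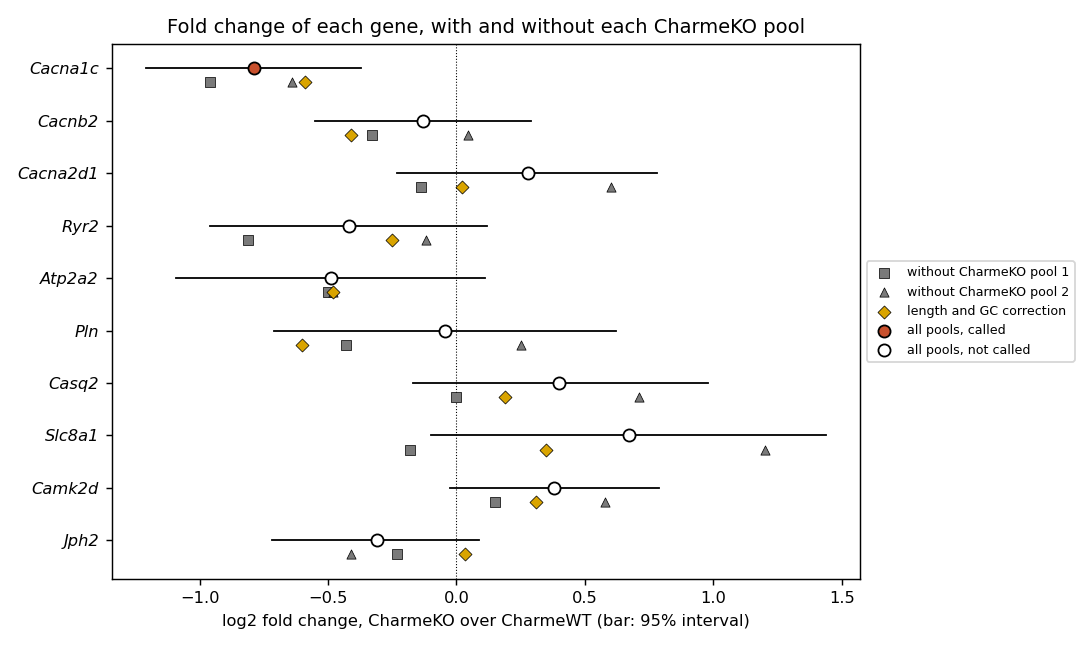
Log2 fold change of each of the 10 genes, CharmeKO over CharmeWT, with its 95% interval from all 5 pools (circles, red where called), and below it the value without CharmeKO pool 1, without CharmeKO pool 2 and after the length and GC correction. Only the interval of Cacna1c lies clear of 0, and Slc8a1, Cacna2d1, Pln, Cacnb2 and (at -0.0028 without CharmeKO pool 1) Casq2 change sign with the CharmeKO pool that is left out.

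The sequence just before a start listed by RefSeq (build GRCm38.p6) is shown for Cacna1c, Jph2 and Camk2d. These are the genes whose pools of the 2 genotypes did not overlap and which the RefSeq promoter table holds. Each line gives the 250 bases before that start, 5′ to 3′ on the strand of the gene. The GC box (GGGCGG, or CCGCCC on the other strand) is in capitals. Cacna1c, at chr6:119196410-119196659 on the minus strand, is the most distal of 3 starts listed for the gene. Jph2 is at chr2:163397994-163398243 on the minus strand and Camk2d at chr3:126596701-126596950 on the plus strand. The Camk2d window lies inside the gene as annotated for the exon lengths, which starts at chr3:126596302.
Cacna1c: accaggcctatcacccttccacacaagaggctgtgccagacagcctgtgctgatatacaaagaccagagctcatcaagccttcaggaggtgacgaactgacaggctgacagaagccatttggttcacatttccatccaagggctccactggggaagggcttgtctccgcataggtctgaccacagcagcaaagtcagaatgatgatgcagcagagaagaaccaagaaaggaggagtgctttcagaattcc
Jph2: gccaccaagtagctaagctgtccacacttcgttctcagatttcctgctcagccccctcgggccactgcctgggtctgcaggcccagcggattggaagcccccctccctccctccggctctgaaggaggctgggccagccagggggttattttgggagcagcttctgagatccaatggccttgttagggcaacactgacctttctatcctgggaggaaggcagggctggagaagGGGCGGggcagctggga
Camk2d: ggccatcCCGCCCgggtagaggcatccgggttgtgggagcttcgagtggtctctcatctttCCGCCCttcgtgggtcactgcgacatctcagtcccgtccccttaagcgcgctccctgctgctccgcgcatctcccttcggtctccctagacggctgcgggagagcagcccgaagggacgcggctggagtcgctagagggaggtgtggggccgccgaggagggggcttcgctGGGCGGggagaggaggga
The window of Cacna1c held no GC box, that of Jph2 held 1 and that of Camk2d held 3. Of 32851 promoters, 32.7% held at least 1 in their 250 bases. None of the 3 held the TATA box (TATAAA, both strands), which 12.4% of all promoters did. These matches describe the sequence only.

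Since the CharmeKO pools differed, the genes were also compared between them. CharmeKO pool 1 was above CharmeKO pool 2 for 9 of the 10 genes, against 49.4% of all genes tested, with log2 differences in CPM from 0.025 for Atp2a2 to 1.38 for Slc8a1. Jph2 went the other way, with -0.17. For 9 of the 10 genes the difference between the CharmeKO pools exceeded the range of the 3 CharmeWT pools, against 54.1% of all genes, and Atp2a2 was the exception. Over all genes this difference followed base composition. Its median was 0.54 for the 884 genes with under 40% GC in the longest transcript and -0.61 for the 636 genes with 60% or more. Pln (38.6% GC), Cacnb2 (39.0%), Slc8a1 (40.2%) and Cacna2d1 (40.7%) are at the AT-rich end, and Jph2 (61.8%) is at the GC-rich end. The difference of Slc8a1 was larger than that of its composition group, since 4.63% of the 1576 genes within 2 GC points of it had one as large. For Ryr2 (0.69 at 49.6% GC) that share was 7.27%, and for Casq2 (0.72 at 47.2% GC) it was 10.1%. The differences of Pln, Camk2d and Cacnb2 were closer to the middle of their groups, with shares of 32.0%, 38.5% and 62.1%. These groups were matched on GC content only. The difference also varied with length, with a median of -0.10 for genes with 2 to 4 kb of exon and 0.36 for those with 16 kb or more. Cacna1c, Ryr2, Slc8a1 and Camk2d are in the longest group. When mitochondrial and salivary gland genes were left out of the libraries before scaling, the fold changes of the 10 genes stayed close to those of the full libraries, with -0.79 for Cacna1c (adjusted p = 0.0907, still called) and 0.66 for Slc8a1, and 2.15% of all genes were called.

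**Figure D3:**
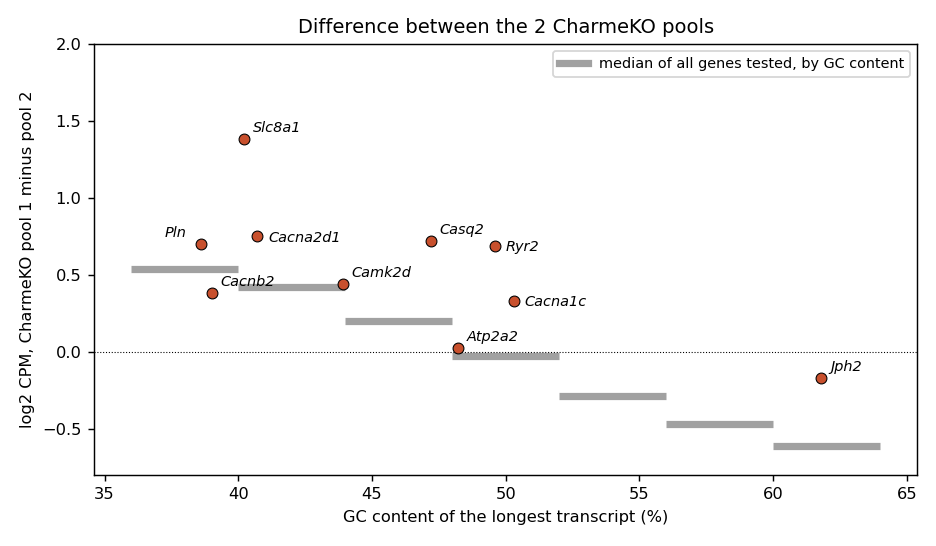
Difference in log2 CPM (counts scaled to library depth) between CharmeKO pool 1 and CharmeKO pool 2 for each of the 10 genes (red), against the GC content of its longest transcript, with the median of all genes tested in 7 bins of GC content (grey, the outer bins being under 40% and 60% or more). The medians step down from 0.54 to -0.61, and Slc8a1 stands highest at 1.38.

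Ratios within a pool set partner genes against each other on the FPKM scale, so that a factor shared by the whole library cancels. The exact two-sided permutation test over the 10 assignments of 5 pools cannot go below p = 0.1, so none of the 4 ratios could pass 0.05. The pump was set against its inhibitor first. The ratio of Atp2a2 to Pln was 0.563, 0.703 and 0.613 in CharmeWT pools and 0.372 and 0.593 in CharmeKO pools, and the genotypes overlapped (exact p = 0.2). The mean log2 difference of -0.41 turned to 0.13 after the length and GC correction. The ratio of exchanger to pump, Slc8a1 to Atp2a2, was 0.0082, 0.0132 and 0.0126 in CharmeWT pools and 0.0361 and 0.0141 in CharmeKO pools. Both CharmeKO pools were above every CharmeWT pool, CharmeKO pool 2 only just (exact p = 0.1, mean log2 difference 1.02). The difference was 0.34 without CharmeKO pool 1 and 1.70 without CharmeKO pool 2. The ratio of release channel to entry channel, Ryr2 to Cacna1c, was 3.01, 2.73 and 2.67 in CharmeWT pools and 4.01 and 3.11 in CharmeKO pools (exact p = 0.1, mean log2 difference 0.34). Here too both CharmeKO pools were the highest. The ratio of store buffer to release channel, Casq2 to Ryr2, was 14.5, 19.9 and 12.5 in CharmeWT pools and 27.5 and 26.8 in CharmeKO pools. It was the ratio in which the CharmeKO pools lay closest to each other, with a mean log2 difference of 0.82 (exact p = 0.2, as another assignment of the pools gave a larger difference). The length and GC correction changed that last difference from 0.82 to 0.43. It gave 0.81 for Slc8a1 to Atp2a2 and 0.32 for Ryr2 to Cacna1c. After adjustment over the 4 ratios each p was 0.2.

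**Figure D4:**
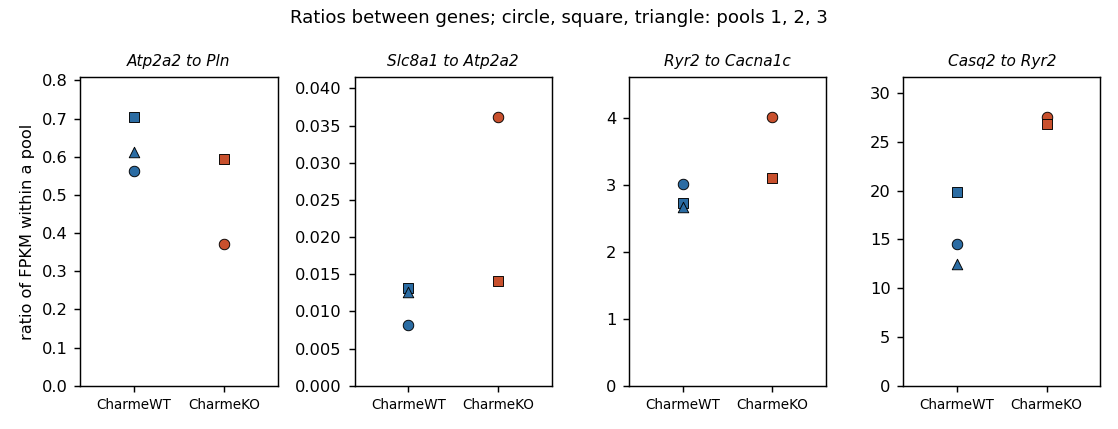
Ratio of FPKM within a pool for 4 pairs of genes, in CharmeWT pools (blue) and CharmeKO pools (red), each on its own linear axis from 0. The CharmeKO pools lie above every CharmeWT pool in the last 3 panels and overlap them in the first, and Casq2 to Ryr2 is at 27.5 and 26.8 in the CharmeKO pools.

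The 10 genes belong to a wider list of 98 calcium handling genes in 8 roles, of which 90 could be tested. Cacna1c was the only gene of the list called lower and Casq1 the only one called higher, 2 of 90, a share near the 2.05% of all genes. The median log2 fold change of the 90 was -0.090. Both CharmeKO pools lay below every CharmeWT pool for 28 of them and above for 12, against 18.2% and 17.8% of all genes. Without CharmeKO pool 2, 31 of 89 (34.8%) were called beside 31.7% of all genes, and without CharmeKO pool 1, 8 of 89 (8.99%) beside 4.33%.

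Among the 18 tested entry genes, 16 had a fitted value below 0 (88.9%, against 48.2% of all genes) and 9 had both CharmeKO pools below every CharmeWT pool (18.2% of all genes), with none above. The other pore-forming subunits, picked out after their values were seen and so without a test of the group, were all among these 9. Cacna1g, the T-type pore Cav3.1, had 6.28, 6.15 and 5.89 FPKM in CharmeWT pools and 3.31 and 4.08 in CharmeKO pools, with a log2 fold change of -0.72 (adjusted p = 0.109). It passed the likelihood ratio test with an adjusted p of 0.0289. Cacna1h, the T-type pore Cav3.2, had a log2 fold change of -0.52 (adjusted p = 0.216), Cacna1d of -0.78 (adjusted p = 0.199) and Cacna1s, with 26 counts at most, of -1.69 (adjusted p = 0.215). Once length and GC had been corrected for, these were -0.37 for Cacna1g, -0.11 for Cacna1h, -0.64 for Cacna1d and -1.50 for Cacna1s, so the T-type pores moved most. Over all genes the fitted values followed base composition, with a median of 0.37 under 40% GC and -0.28 at 60% or more. The 18 entry genes ran from 39.0% to 61.3% GC, several of them at 56% or more. The part of base composition in the 16 values below 0 was not tested. Rrad and Ahnak, the most abundant other genes of the role by the mean over the 5 pools, had log2 fold changes of -0.24 each (adjusted p = 0.729 and 0.586). Rrad, an inhibitor of the channel, had 49.3 FPKM in CharmeKO pool 1 and 138 in CharmeKO pool 2, on either side of the CharmeWT pools.

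In the release role, Casq1, the calsequestrin of skeletal muscle, had 10.7, 28.4 and 11.8 FPKM in CharmeWT pools and 51.4 and 44.2 in CharmeKO pools. Both CharmeKO pools were well above the CharmeWT pools. It rose by 1.50 on the log2 scale (SE 0.363, adjusted p = 0.0985) and was 1.39 and 1.60 without CharmeKO pool 1 and pool 2. The call ended with the legacy and robust settings (adjusted p = 0.112 and 0.137), with the length and GC correction (0.120) and without CharmeWT pool 1 or pool 3 (adjusted p = 0.252 and 0.426), where the log2 fold change was 1.25 and 1.29. In the same pools, 2 of 8 skeletal muscle markers were called higher, Myh8 and Mylpf, with 114 and 503 counts for Myh8 in CharmeKO pools 1 and 2 against 34 to 50 in CharmeWT pools. Myod1 had no count in 4 of the 5 pools and 2 counts in CharmeKO pool 2. The 6 markers that could be tested had a median log2 fold change of 2.13. Both CharmeKO pools lay above every CharmeWT pool for 4 of them (17.8% of all genes) and below for 0. The summed level of the 8 markers was 1040 to 1334 FPKM in CharmeWT pools and 1449 and 1323 in CharmeKO pools. Most of this sum was Ckm, with a log2 fold change of 0.16, so the sum says little of the other markers. The part of skeletal muscle RNA in the rise of Casq1 was not tested. The most abundant other genes of the role were S100a1, a calcium sensor that acts on the store (0.41, adjusted p = 0.313), and Srl, the store glycoprotein sarcalumenin (-0.034, adjusted p = 0.943), neither of which was called.

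The other roles held no called gene under the test used here. Sln, the atrial SERCA inhibitor sarcolipin, had a log2 fold change of 0.93 (adjusted p = 0.302), with 31.0, 8.59 and 33.4 FPKM in CharmeWT pools and 35.3 and 57.1 in CharmeKO pools. Atp2a3, a pump of non-muscle cells, had 1.18 FPKM in CharmeKO pool 1 and 10.7 in CharmeKO pool 2, against 1.61 to 2.44 in CharmeWT pools. Salivary gland genes took 0.0279% and 2.57% of counts in CharmeKO pools 1 and 2, and their part in this difference was not tested. In the extrusion role, Fxyd1, which encodes phospholemman, had a log2 fold change of 0.11 (adjusted p = 0.768). At the junction, Tcap, the Z-disc protein telethonin, had a log2 fold change of -0.64 (adjusted p = 0.146, with an adjusted p of 0.0767 in the likelihood ratio test) and Cav3, the caveolin of muscle, of 0.084 (adjusted p = 0.834). Among kinases and phosphatases, Prkaca, the catalytic subunit of protein kinase A, had a log2 fold change of -0.51 (adjusted p = 0.223) and Ppp1ca, a catalytic subunit of protein phosphatase 1, of -0.023 (adjusted p = 0.956). The store-operated channels Orai1 (-0.49, adjusted p = 0.295) and Orai3 (-0.40, adjusted p = 0.396) and the mitochondrial uniporter subunits Smdt1 (0.091, adjusted p = 0.815) and Micu2 (0.20, adjusted p = 0.567) completed the list.

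**Figure D5:**
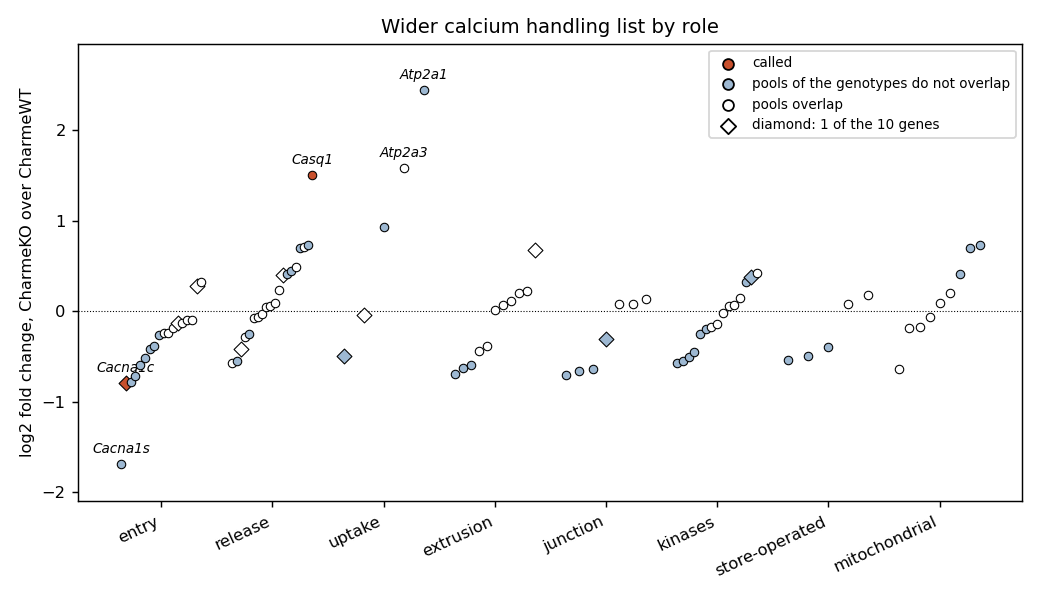
Log2 fold change of the 90 tested genes of the wider calcium handling list by role, CharmeKO over CharmeWT, with the 10 genes as diamonds, called genes in red and genes whose pools do not overlap in light blue. Only Cacna1c in the entry role and Casq1 in the release role are called, and 16 of the 18 entry genes lie below 0.

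The genes whose pattern over the 5 pools was most like that of a given member were found by the root mean square difference of centred log2 CPM, over 11902 other genes of at least 1 FPKM. For Atp2a2 these were Agtr1a, an angiotensin II receptor, at 0.010, Slc2a12 at 0.026 and Agtrap, which binds that receptor, at 0.0333. For Cacna1c they were Tcp11l2 at 0.0625, Thap6 at 0.0828 and Enpp6 at 0.0892. For Ryr2 they were Angptl6 at 0.0611, Atg16l2 at 0.0648 and Ank2, the ankyrin that anchors the exchanger and pumps at the membrane, at 0.0712. With 5 pools this is a description of likeness, and none of the 9 genes was called.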

How the data were processed

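RNA-seq libraries of polyadenylated RNA (Illumina Stranded mRNA Prep) came from 3 CharmeWT and 2 CharmeKO pools. The authors trimmed the reads with Cutadapt and Trimmomatic, aligned them to GRCm38 (mm10) with STAR and deposited raw counts of fragments per gene of Ensembl release 87, in the reverse-strand setting. Their FPKM table was not used, and FPKM was computed here from the counts, with exon lengths of GENCODE M21. No other gene of the same strand shares exon with the 10 genes.

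Genes reaching 10 counts in 2 or more pools were scaled by TMM and tested in R 4.3.3 with edgeR 4.0.16 (quasi-likelihood test, genotype only), with Benjamini-Hochberg adjustment over 14880 genes. Standard errors were taken from the fold change and its F statistic. The likelihood ratio test (which the authors' methods name), DESeq2 1.42.0, the other forms of the test, other scalings and filters, a replicate block, a per-pool spline correction (4 degrees of freedom) on length and GC content, and leaving out each pool were alternatives. Scaling to the geometric mean of the cardiomyocyte genes, the correction without each CharmeKO pool and the longest-transcript lengths were added after seeing the data. The test was also run on simulated counts that gave both genotypes the same spread for each gene. The CharmeKO pools stood further apart than the CharmeWT pools, so that run cannot vouch for the calls here.

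The 10 genes and all lists were chosen with earlier results of these data known, so they are not independent evidence. The text names the 10 genes, called genes of each role of the wider list or else its 2 most abundant genes, the 3 genes most like Cacna1c, Ryr2 and Atp2a2, and Charme. One gene that this rule selects is not reported here. The rest of the pore-forming subunits were named after their values were seen, as were the called skeletal muscle markers. Strit1 was matched through its annotated name Gm34302. The labels do not say that pools are separate litters, and p-values measure the spread between pools. Counting precision rests on 807 to 122250 counts per gene and pool, and reads carry no molecular identifiers.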

Additional observations from a re-analysis of the deposited data

How the results depend on the processing

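Cacna1c was the 1 gene of 10 called, and its log2 fold change was below 0 in every alternative, from -0.96 to -0.64 with 1 pool left out. It was called in 10 of 21 alternatives, with adjusted p between 0.00866 and 0.461. No gene of the 10 was called with the legacy or robust test, upper-quartile normalization, scaling to the geometric mean of cardiomyocyte genes, an adjusted p under 0.05, the length and GC correction, or that correction without CharmeKO pool 2 (0 in each). DESeq2 called 2 (and 7.54% of all genes), and with 1 pool left out the number called was 0 to 5, in fits that called 0% to 31.7% of all genes. The call of Cacna1c was lost without each CharmeWT pool in turn, in fits that called 2, 187 and 0 of all genes, while its fold change stayed at -0.79, -0.87 and -0.71.

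The wider list had 2 called genes, and 6 with the likelihood ratio test (6.67%, against 6.27% of all genes), 8 with DESeq2 (8.89% against 7.54%), 0 with the legacy or robust test or at 0.05, 1 with upper-quartile normalization, with the geometric mean scaling and with the length and GC correction, and 7 and 10 with that correction without CharmeKO pool 1 and pool 2 (7.87% and 11.2%, against 4.52% and 14.2% of all genes). With 1 pool left out it was 0 to 31.

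The median of the 10 genes moved by more than 1 SD of the CharmeWT pools (0.0332) to -0.16 with the geometric mean scaling. Without CharmeKO pool 1 and pool 2 it moved to -0.28 and 0.15, and to -0.27 and 0.068 with the correction added. Without CharmeWT pool 1, 2 or 3 it was -0.058, -0.12 and -0.079, within 1 SD of the value from all pools.

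The replicate numbers were not paired by any label. The deviations of same-numbered pools from their genotype means had correlations of 0.114 and 0.0576. The deviations of 2 CharmeKO pools mirror each other, so the other CharmeKO pool gives the same value with the opposite sign. These correlations therefore cannot decide whether pools were paired. With a replicate block, 0 of the 10 and 1 of the wider list were called (Cacna1c -0.71, adjusted p = 0.144). With the block and the length and GC correction it was 0 and 0, and the median was -0.17.

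Of 210 values of single genes, 181 kept direction and call, 11 lost the call, 6 gained it and 12 reversed. With 1 pool left out, reversals occurred in Cacnb2 (-0.33 to 0.043), Cacna2d1 (-0.14 to 0.60), Pln (-0.43 to 0.25), Casq2 (-0.0028 to 0.71) and Slc8a1 (-0.18 to 1.20), each between the CharmeKO pools, and in Pln without CharmeWT pool 1 (0.067). With the correction and without CharmeKO pool 1, Cacna2d1 was -0.11, Casq2 -0.14 and Slc8a1 -0.092, and without CharmeKO pool 2 Jph2 was 0.27. Jph2 was 0.032 with the length and GC correction, and Cacna2d1 was -0.044 with that and the replicate block. The difference in the ratio of Atp2a2 to Pln turned from -0.41 to 0.13 with the correction. The alternative on the deposited FPKM table was not run. With 3 pools against 2, the 95% intervals of all of these genes except Cacna1c left room for changes in either direction.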
